A study of Sus scrofa with 22 samples.

Results

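The comparison is between 2 pig breeds in fat that the labels class as thick. It sets 5 Hampshire libraries of thick subcutaneous fat against 4 Large White libraries of thick subcutaneous fat, 9 of the 22 libraries in the series. Libraries were chosen by their labels alone, and no measured value was used. All 9 came from female pigs of 6 months, and the labels give the fat class in words, without a measured thickness. The labels name no treatment, genotype or allele, and give no animal identifier, so p-values measure only the spread between these samples. Small RNA was read in 36 single-end cycles, and the authors deposited a separate table of raw read counts per sequence for each breed. Sequences carried a miRNA name, apart from 71 over both tables that were left out, and reads were summed per name. The Hampshire table held 223 names and that for Large White held 224. Both tables shared 202 names, of which 153 passed the filter on low counts and were tested. The breed and the table its counts came from coincide, so an effect of breed and an effect of how each table was made cannot be told apart.

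A miRNA is a short RNA that guides a silencing complex to messenger RNAs, mainly by pairing its seed, bases 2 to 8, with sites in the target. Loss of the target's protein or messenger follows. miRNAs that share a seed can bind the same sites and are grouped into families. In fat tissue, miRNAs are known as brakes and accelerators of adipogenesis, the process by which precursor cells become fat cells. They also act on lipid handling and on the choice between white and heat-producing (thermogenic) fat cells. Hampshire and Large White are long-established pig breeds. Bulk tissue was measured, so fewer cells of a type and less RNA per cell cannot be told apart.

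Libraries are named here by breed and replicate, where the replicate number follows the order of the deposit and pairs nothing. The library labelled Large White thick replicate 1 needs care. When the Large White fat comparison was refitted per sequence with the labels as given, its log2 fold changes had a Pearson r of 0.65 with those in the authors' deposited table, across 6796 sequences. With the labels of this library and of Large White thin replicate 1 exchanged, r was 1. The labels were kept, and where the exchange changed a call or moved a log2 difference by over 1.5 times for a miRNA named here, that value is given too. Totals ran from 431542 to 2315501 reads in Hampshire and from 558144 to 2627753 in Large White, with Hampshire replicate 2 and Large White replicate 1 the shallowest. No library listed a count between 0 and 6, so a 0 can hide a few reads and no upper limit is given for it. Of 16 within-group pairs, the most similar still differed by a chi-square of 130 per degree of freedom, so none agreed within sampling noise.

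The most abundant sequence of each miRNA that the results turn on is printed 5′ to 3′ from the deposited counts, with the seed in capitals. The first group shows the miRNAs that passed the test, miR-32 and miR-27a, each beside a relative with the same seed.
miR-32: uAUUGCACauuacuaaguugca
miR-92a: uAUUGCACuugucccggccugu
miR-27a: uUCACAGUggcuaaguuccg
miR-27b-3p: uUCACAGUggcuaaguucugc
Counting from 1 at the 5′ end, miR-27a and miR-27b-3p differ over their shared length by C19U, so shorter reads of either cannot be assigned. No other name came within 4 differences of miR-32.

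The second group shows the family of miR-148 and miR-152, in which members with one seed lay on opposite sides of 0.
miR-148a-3p: uCAGUGCAcuacagaacuuugu
miR-148b-3p: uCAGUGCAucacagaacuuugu
miR-152: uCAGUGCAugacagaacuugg
miR-148a-3p differs from miR-148b-3p by C9U and U10C, and miR-152 from miR-148b-3p by G10C and G20U.

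The third group shows 4 of the 8 tested members of the let-7 seed, which differ from each other by 1 or more bases outside the seed.
let-7e: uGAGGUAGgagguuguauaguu
let-7a: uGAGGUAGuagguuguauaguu
let-7f-5p: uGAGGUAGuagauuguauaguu
let-7g: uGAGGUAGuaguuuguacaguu
let-7e differs from let-7a by G9U, let-7f-5p from let-7a by A12G, and let-7g from let-7a by U12G and C18U. The last group shows the other miRNAs of smallest p, none of which passed the threshold.
miR-196a: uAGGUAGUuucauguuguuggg
miR-455-5p: uAUGUGCCuuuggacuacaucgu
miR-381-3p: uAUACAAGgacaagcucucugu
miR-532-5p: cAUGCCUUgaguguaggaccgu
miR-196a has the let-7 letters shifted by a base, AGGUAGU against GAGGUAG, and differs from miR-196b-5p by A12C.

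Of the 153 miRNAs tested, 2 passed an adjusted p of 0.05, which is 1.31% of those tested, and both were higher in Hampshire (1.31% higher, 0% lower). They were miR-32, at 3.74-fold, and miR-27a, at 2.09-fold. At an unadjusted p under 0.05 there were 31, of which 19 were higher and 12 lower in Hampshire, and the median log2 difference of all 153 was 0.07. The groups did not overlap for 24 of the 153, or 15.7%, with 13 higher and 11 lower in Hampshire. By other tools, DESeq2 called 21 (13 higher, 8 lower) and limma-voom 15 (9 higher, 6 lower). With upper quartile scaling the edgeR calls were 1 higher and 1 lower, and with library totals alone 2 higher and 2 lower. The median of all miRNAs was -0.09 and -0.10 under those scalings. With Large White replicate 1 exchanged as above, miR-27a was higher and miR-196a, let-7e and miR-365-3p were lower. Leaving out single libraries changed the count: without Large White replicate 3 it was 0 (22 at an unadjusted p under 0.05), without Large White replicate 4 or Hampshire replicate 1, 4 or 5 it was 1, and without Hampshire replicate 2 it was 4.

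miR-32 belongs to the miR-25/32/92 seed family, known for growth control and, in mouse brown fat, for a link to heat production. Its level in CPM (reads per 1000000, on library sizes scaled by TMM over these 9 libraries) was 273, 297, 248, 253 and 449 in the Hampshire libraries. In Large White it was 78.9, 80.9, 65.5 and 99.3. Every Hampshire library was above every Large White library, and Hampshire replicate 5 stood above the other Hampshire libraries. The log2 difference was 1.90 ± 0.25 (SE, 95% interval 1.33 to 2.47), with an adjusted p of 0.0055 by edgeR's quasi-likelihood test. The call was lost without Large White replicate 3 (log2 1.77, adjusted p 0.0978), and with Large White replicate 1 exchanged as above (1.49, adjusted p 0.0550). Over 26 alternatives its adjusted p ran from 7.61e-10 to 0.0978, and 24 passed.

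The most abundant miR-32 sequence, printed above, was the leading form in 9 of 9 libraries. It held 69.8% to 77.9% of miR-32 reads in Hampshire and 63.4% to 70.0% in Large White. Counted alone it gave a log2 difference of 2.02. The relatives with its seed did not pass: miR-92a, from the growth-promoting miR-17-92 cluster, had a mean of 6495 ± 3066 CPM (SD, n = 5) in Hampshire and 5979 ± 1046 (SD, n = 4) in Large White. The log2 difference of miR-92a was 0.12 (95% interval -0.63 to 0.87), and that of miR-92b-3p was 0.53 (-0.75 to 1.80). The sign for miR-92a changed with upper quartile scaling and without Large White replicate 2 or Hampshire replicate 1 or 3.

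miR-27a is a repressor of adipogenesis, known to act on the fat cell regulator PPARG, and is encoded with miR-23a and miR-24 in one cluster. Its level was 5634, 7810, 5036, 8029 and 7436 CPM in the Hampshire libraries. In Large White it was 3756, 2947, 2782 and 3482 CPM. Every Hampshire library was again above every Large White library. The log2 difference was 1.07 ± 0.19 (SE, 95% interval 0.63 to 1.498), with an adjusted p of 0.0262 by edgeR. The adjusted p rose past the threshold without Large White replicate 2, 3 or 4 (0.102, 0.174, 0.0700) or Hampshire replicate 1, 4 or 5 (0.0628, 0.0753, 0.0857). With upper quartile scaling the log2 difference was 0.92 (adjusted p 0.134), with the trend over GC content and length removed 0.84 (0.149), and without the 2 shallowest libraries 1.05 (0.0693). Over 26 alternatives its adjusted p ran from 5.46e-06 to 0.174, and 17 passed.

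The sequence of miR-27a printed above, whose last bases set it apart from miR-27b-3p, gave a log2 difference of 1.12 when counted alone, with an adjusted p of 0.0181. miR-27b-3p, its relative from the other cluster, was at 18258 ± 4204 CPM (SD, n = 5) in Hampshire and 18735 ± 5476 (SD, n = 4) in Large White. Its log2 difference was -0.04 (95% interval -0.59 to 0.51). The sign of that value changed with limma-voom and 5 other alternatives outside the single-library ones, and without Large White replicate 1 or Hampshire replicate 3. The cluster partners of miR-27a did not pass: miR-23a had a log2 difference of -0.35 (-1.17 to 0.47) and miR-24-3p of 0.18 (-0.16 to 0.52). Both clusters hold a miR-24, and the name miR-24-3p does not tell them apart, so its level cannot be credited to the miR-27a cluster alone. miR-23b, from the miR-27b cluster, had -0.64 ± 0.28 (SE), but -0.11 with the trend over GC content and length removed and -0.38 both with exchanged labels and without Large White replicate 1. miR-24-1-5p, the minor strand from that cluster, had 0.57 ± 0.19 (SE), and 0.35 when its most abundant sequence was counted alone. Of the 7 tested members of both clusters, only miR-27a passed, and their median was -0.04.

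**Figure D1:**
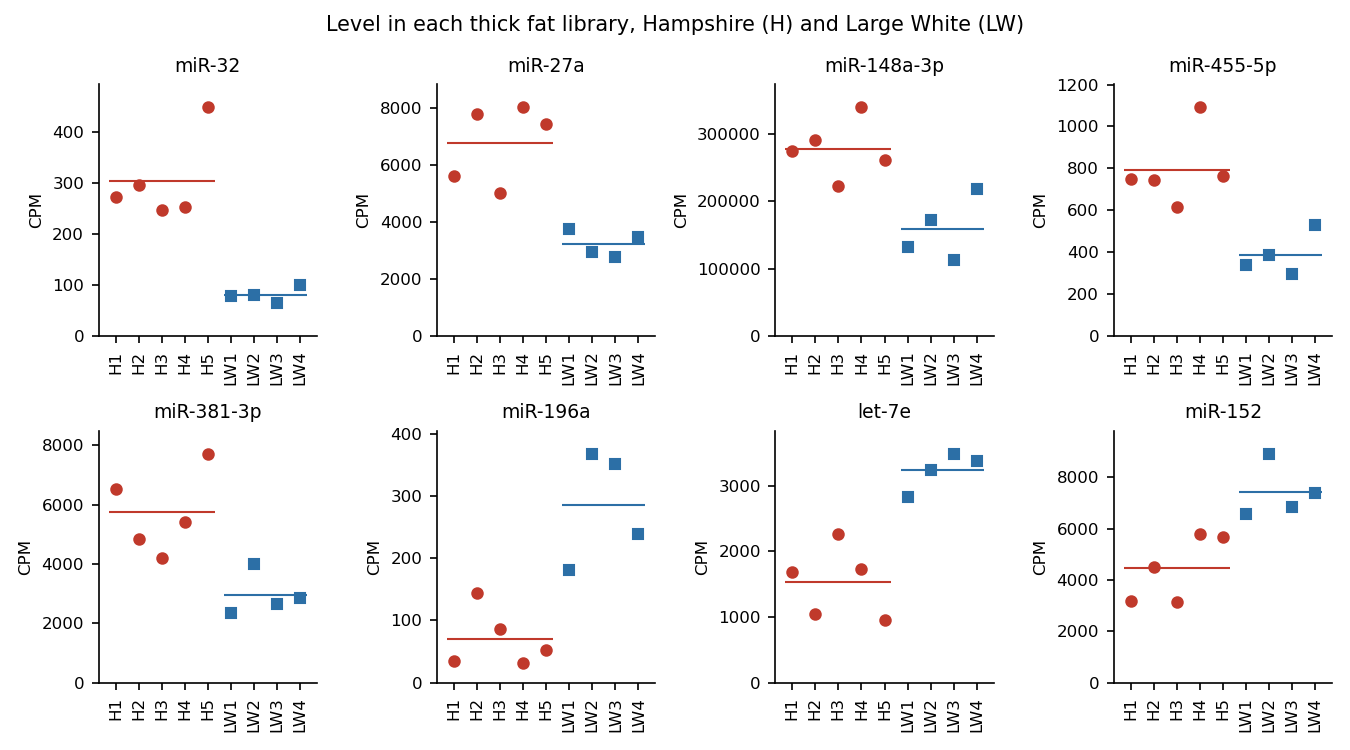
Level in CPM (vertical axis, from 0) of 8 miRNAs in the 5 Hampshire (circles, H1 to H5) and 4 Large White (squares, LW1 to LW4) thick fat libraries, with group means as lines. The groups do not overlap in any of the 8 panels, and miR-32 and miR-27a are those that passed the adjusted test.

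The other 29 miRNAs at an unadjusted p under 0.05 did not pass, and those outside the rule for named miRNAs were chosen after their values were seen. For 20 of the 31 the groups did not overlap, and 30 of the 31 had reads in every library. All 31 kept the sign of their log2 difference in each of the alternatives that tested them. Since the 31 were picked by p in these same libraries, separation and a steady sign are partly fixed by that choice and add no support. miR-144, a red blood cell miRNA, was the exception on reads: it had 17.6, 19.1, 39.6, 65.4 and 40.4 CPM in Hampshire, 6.02 CPM in Large White replicate 2 and 0 in the other 3 Large White libraries. No fold is given for miR-144, because the fitted value of a miRNA with so few reads depends on the prior count. With 0 in 3 Large White libraries, miR-144 met the filter on low counts only through Hampshire. Its direction is thus partly fixed by the filter, and its p and calls add no support.

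**Figure D2:**
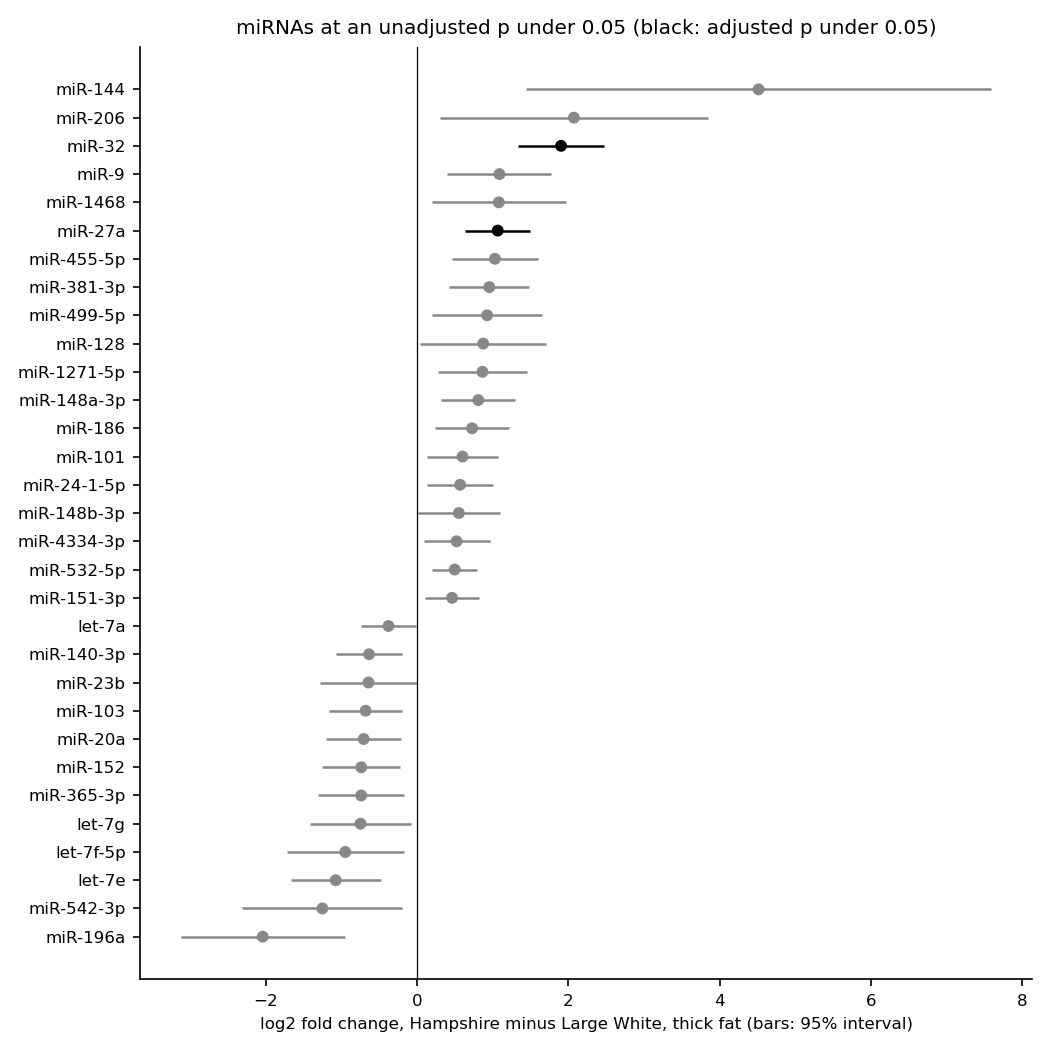
Log2 fold change, Hampshire minus Large White, of the 31 miRNAs at an unadjusted p under 0.05 (points) with 95% intervals (bars). miR-32 and miR-27a, in black, passed the adjusted test; the wide bar of miR-144 goes with 3 Large White libraries at 0.

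miRNAs linked to thermogenic fat lay on both sides of 0. miR-196a, which represses HOXC8 and is known to favour heat-producing cells in white fat, was at 35.1, 143, 85.4, 32.1 and 52.8 CPM in Hampshire. In Large White it was at 181, 368, 352 and 239 CPM. Every Hampshire library was below every Large White library. That gave a log2 difference of -2.04 ± 0.48 (SE, 95% interval -3.12 to -0.96), with an adjusted p of 0.0691 by edgeR, and 7 of 26 alternatives passed (adjusted p from 0.00134 to 0.213). With exchanged labels miR-196a was at -2.27 (adjusted p 0.0339).

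miR-455-5p, from a locus known to promote brown fat cells, was at 750, 744, 615, 1091 and 764 CPM in Hampshire and at 341, 385, 296 and 532 CPM in Large White. Every Hampshire library was above every Large White library. The log2 difference was 1.03 ± 0.25 (SE, 95% interval 0.46 to 1.59), with an adjusted p of 0.0691, and 7 of 26 alternatives passed. miR-365-3p, encoded beside miR-193b and enriched in brown fat, was at 349 ± 66.3 CPM (SD, n = 5) in Hampshire and 581 ± 149 (SD, n = 4) in Large White. Its log2 difference was -0.74 ± 0.25 (SE) and the groups overlapped. With exchanged labels miR-365-3p was at -0.97 (adjusted p 0.0339, against a range of 0.0152 to 0.303 over its alternatives). Of the 11 tested thermogenic miRNAs 0 passed by edgeR, while 1 was higher and 2 were lower at an unadjusted p under 0.05. DESeq2 called those same numbers, limma-voom 1 higher and 1 lower, and the median of the 11 was -0.13. Over all 153 tested, 19 were higher and 12 lower at an unadjusted p under 0.05. DESeq2 called 13 higher and 8 lower of the 153, and limma-voom 9 higher and 6 lower. These counts over all miRNAs are to be set beside this list and those below.

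miR-148a-3p, which promotes adipogenesis and acts on the LDL receptor, had the highest mean level of all tested miRNAs. It was at 274811, 291341, 222962, 339108 and 261032 CPM in Hampshire, and at 131825, 172468, 112463 and 217339 CPM in Large White. The lowest Hampshire library was just above the highest Large White library. The log2 difference was 0.81 ± 0.22 (SE, 95% interval 0.32 to 1.297), with an adjusted p of 0.0877, and 6 of 26 alternatives passed. As a share of the reads with a miRNA name it made up 26.3% ± 2.84 (SD, n = 5) in Hampshire and 16.7% ± 4.27 (SD, n = 4) in Large White. That share differed by 9.65 percentage points (two-sided exact permutation p of 0.00794 over 126 splits, the smallest possible here, and 0.0238 adjusted over 3 library measures). The share rests on the same counts as the edgeR fit and was not adjusted over all tested miRNAs. Its p is therefore no separate support for a difference in miR-148a-3p.

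miR-148b-3p, with the same seed, was at 1833, 3288, 1554, 1897 and 1747 CPM in Hampshire and 1257, 1654, 1341 and 1376 CPM in Large White. Its groups overlapped, with Hampshire replicate 2 far above the rest, and its log2 difference was 0.55 ± 0.24 (SE), or 0.32 without that library and 0.23 without the 2 shallowest. miR-152, also with that seed, had the opposite sign, at 3194, 4496, 3138, 5796 and 5661 CPM in Hampshire and 6589, 8916, 6828 and 7391 CPM in Large White. Every Hampshire library was below every Large White library for miR-152, and the log2 difference was -0.74 ± 0.23 (SE, 95% interval -1.25 to -0.22). Its adjusted p was 0.111, with 4 of 26 alternatives passing. The summed level of the 3 family members followed miR-148a-3p, at 227653 to 346801 CPM in Hampshire and 120631 to 226106 CPM in Large White. None of the 3 passed by edgeR, all 3 were at an unadjusted p under 0.05 (2 higher, 1 lower), and DESeq2 and limma-voom each called 1 higher and 1 lower.

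The let-7 family is known for holding back growth and keeping cells differentiated, and its members lay mostly below 0. let-7e was at 1678, 1045, 2269, 1726 and 955 CPM in Hampshire and 2830, 3241, 3483 and 3379 CPM in Large White. Every Hampshire library was below every Large White library. Its log2 difference was -1.07 ± 0.26 (SE, 95% interval -1.67 to -0.48), with an adjusted p of 0.0691, and 10 of 26 alternatives passed (adjusted p from 0.000937 to 0.213). With exchanged labels let-7e was at -1.22 (adjusted p 0.0339). let-7f-5p was at 12902, 27268, 17123, 42593 and 35008 CPM in Hampshire and 46603, 67602, 47509 and 46540 CPM in Large White. The groups did not overlap, although Hampshire replicate 4 came close, and the log2 difference was -0.95 ± 0.34 (SE, adjusted p 0.146).

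let-7g had a log2 difference of -0.75 ± 0.29 (SE) and let-7a of -0.38 ± 0.16 (SE), both with overlapping groups. let-7i-5p, abundant in both breeds, had 0.03 ± 0.28 (SE), and upper quartile scaling, library totals and RLE size factors each changed that sign. Of the 8 tested members 0 passed by edgeR in either direction and 4 were lower at an unadjusted p under 0.05. DESeq2 called 2 lower and limma-voom 1 lower. Of all 153 tested, 12 were lower at an unadjusted p under 0.05, DESeq2 called 8 lower and limma-voom 6 lower. The median of the 8 was -0.41, with 6 below 0, beside a median of 0.07 over all 153. The summed level of the family was 128555 to 247559 CPM in Hampshire and 207093 to 283521 CPM in Large White, so these ranges overlapped.

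miRNAs known to promote or hold back fat cell formation lay on both sides of 0. Of 16 tested promoters 0 passed by edgeR, 1 was higher and 2 lower at an unadjusted p under 0.05, and the median was 0.19. DESeq2 called 1 higher and 2 lower, and limma-voom 1 of each. miR-103, known to lower insulin sensitivity in fat cells, was at 2275, 4503, 2984, 3815 and 3772 CPM in Hampshire and 4616, 5436, 6812 and 5373 CPM in Large White. The groups did not overlap, though by a narrow margin, and the log2 difference was -0.68 ± 0.22 (SE, adjusted p 0.111). With the trend over GC content and length removed, miR-103 was at -0.35. miR-20a, of the miR-17-92 cluster, was at 179 ± 43.5 CPM (SD, n = 5) in Hampshire and 292 ± 29.5 (SD, n = 4) in Large White, and had -0.71 ± 0.22 (SE, adjusted p 0.111) with groups that did not overlap.

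Of 13 tested repressors of adipogenesis, miR-27a passed, and 12 did not, with a median of 0.17. miR-144 was the other at an unadjusted p under 0.05, and DESeq2 and limma-voom each called 2 higher. Since miR-144 met the filter on low counts only through Hampshire, its calls add no support here. Of 14 tested miRNAs of lipid and cholesterol metabolism, miR-27a again was the one that passed, and their median was 0.29. miR-128, known to act on cholesterol export and the LDL receptor, was at 1865, 1597, 2315, 844 and 709 CPM in Hampshire and 606, 748, 941 and 902 CPM in Large White. Hampshire replicates 1 to 3 were above all Large White libraries and replicates 4 and 5 were among them, with a log2 difference of 0.87 ± 0.37 (SE, adjusted p 0.226). In the miR-30 family, the miR-29 family, the miR-15 family with miR-16 and miR-195, and the families of miR-10, miR-99, miR-100 and miR-125, edgeR, DESeq2 and limma-voom called 0 of the 3, 2, 4 and 7 tested members, and 0 were at an unadjusted p under 0.05. Their medians were -0.22, 0.26, -0.17 and 0.32.

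miR-381-3p lies in the imprinted DLK1-DIO3 cluster, whose host region takes its name from a regulator of fat precursor cells. It was at 6537, 4850, 4186, 5429 and 7710 CPM in Hampshire and 2350, 4005, 2649 and 2842 CPM in Large White. The groups did not overlap, with Hampshire replicate 3 just above Large White replicate 2. The log2 difference was 0.96 ± 0.23 (SE, 95% interval 0.43 to 1.48), with an adjusted p of 0.0691, and 3 of 26 alternatives passed. All of its reads, 1221 to 10149 per library, were of the 1 sequence printed above, while the median number of sequences per tested name was 15. It was the only one of the 8 tested names with a single sequence to have over 1000 reads in every library. Its cluster mate miR-127 had a log2 difference of -0.04 (95% interval -0.56 to 0.47), and the third tested member, miR-493-5p, had -0.49 (-3.70 to 2.72).

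miR-532-5p, from a cluster on the X chromosome, was at 1964, 2174, 1762, 2111 and 1857 CPM in Hampshire and 1392, 1409, 1300 and 1489 CPM in Large White. The groups did not overlap, and the log2 difference was 0.50 ± 0.13 (SE, 95% interval 0.20 to 0.80), with an adjusted p of 0.0877. miR-542-3p, from another X-linked cluster, was at 137, 76.5, 156, 74.1 and 84.2 CPM in Hampshire and 100, 471, 289 and 148 CPM in Large White, a spread led by Large White replicates 2 and 3. Its log2 difference was -1.25 ± 0.47 (SE, adjusted p 0.154), or -0.80 without Large White replicate 2, and its neighbour miR-450a had 0.39 ± 0.26 (SE). The leading miR-450a sequence matches that of miR-450c-5p over their shared length. The value of miR-450a thus depends on how reads were assigned between these names, which was not tested.

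Among the remaining miRNAs with groups that did not overlap, miR-186 had a log2 difference of 0.73 ± 0.21 (SE) and miR-101, known to act on the chromatin modifier EZH2, had 0.60 ± 0.21 (SE), though 0.16 with the trend over GC content and length removed. miR-4334-3p had 0.52 ± 0.19 (SE) and levels of 138 ± 2.97 CPM (SD, n = 5) in Hampshire and 95.8 ± 17.2 (SD, n = 4) among the Large White libraries. Over their shared length its leading sequence differs from that of miR-339-5p by U21A alone, so shorter reads of either cannot be assigned. For miR-339-5p the log2 difference was -0.13. miR-140-3p, whose locus is best known from cartilage, was at 2642 ± 500.2 CPM (SD, n = 5) in Hampshire and 4102 ± 857 (SD, n = 4) for Large White, with -0.63 ± 0.19 (SE, adjusted p 0.111). It was at -0.35 with that trend removed and at -1.16 (adjusted p 0.0451) when its most abundant sequence was counted alone, where the adjusted p over its alternatives ran from 0.0055 to 0.700. miR-151-3p at 0.46 ± 0.16 (SE) and miR-1468 at 1.08 ± 0.39 (SE) had overlapping groups and were each above the Large White mean in 5 of 5 Hampshire libraries.

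miR-1271-5p had a log2 difference of 0.86 ± 0.26 (SE, adjusted p 0.111), from 384 ± 121 CPM (SD, n = 5) in Hampshire and 211 ± 8.52 (SD, n = 4) in Large White. Its reads were of 2 forms that differ at the 3′ end, and each library held reads of only 1 of them.
miR-1271-5p, 20 nt: cuuggcaccuaguaagcacu
miR-1271-5p, 22 nt: cuuggcaccuaguaagcacuca
The 20 nt form had 491, 240, 197 and 296 reads in Hampshire replicates 1, 2, 4 and 5. The 22 nt form had 955 reads in Hampshire replicate 3 and 116, 308, 537 and 557 reads in the Large White libraries. miR-9, a nervous system miRNA, was at 77.9, 78.9, 88.7, 92.6 and 78.6 CPM in Hampshire and 23.1, 36.1, 38.7 and 57.7 CPM in Large White. Its groups did not overlap, and the log2 difference was 1.09 ± 0.30 (SE, adjusted p 0.100), but 0.55 when its most abundant sequence was counted alone and 0.50 with exchanged labels.

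Markers of other cell types were measured alongside. The 3 tested skeletal muscle miRNAs had a median log2 difference of 1.09 and all 3 were above 0. By edgeR 0 passed, 2 were higher at an unadjusted p under 0.05, DESeq2 called 1 and limma-voom 0. Of all 153 tested, 19 were higher at an unadjusted p under 0.05, and DESeq2 called 13 higher. miR-206, the muscle miRNA with the largest difference, was at 407, 533, 82.1, 1542 and 686 CPM in Hampshire and 63.5, 129, 113 and 309 CPM in Large White. The groups overlapped, with Hampshire replicate 3 among the Large White libraries, and the log2 difference was 2.07 ± 0.78 (SE, 95% interval 0.30 to 3.84, adjusted p 0.156). miR-499-5p, from an intron of a slow myosin gene, had 0.93 ± 0.32 (SE), or 0.59 with the trend over GC content and length removed and 0.54 with exchanged labels. miR-133a-3p had 1.09 ± 0.74 (SE). The summed level of the muscle list was 347 to 2485 CPM in Hampshire and 293 to 1116 CPM in Large White.

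The 3 red blood cell miRNAs had a median of 0.90, and their sum was 462 to 1955 CPM in Hampshire and 490 to 763 CPM in Large White. miR-451, the most abundant of them, was at 285, 452, 415, 1631 and 1390 CPM in Hampshire and 437, 385, 375 and 587 CPM in Large White, so that Hampshire replicates 4 and 5 were apart from the rest. None of the 3 passed by edgeR, and miR-144 was at an unadjusted p under 0.05 and was called by DESeq2 and limma-voom. Those calls of miR-144 add no support, because it met the filter on low counts only through Hampshire. For 4 miRNAs of leukocytes, 2 of endothelium, 6 of smooth muscle and stroma, 3 of skin and other epithelia and 2 of liver, edgeR, DESeq2 and limma-voom called 0, and 0 were at an unadjusted p under 0.05. Of 4 nerve miRNAs, miR-9 alone was at an unadjusted p under 0.05 and was called by DESeq2 and limma-voom. The nerve list did not share its direction: 2 members lay above 0 and 2, miR-7 and miR-129a-5p, below, with a median of 0.27. The part of these cell types in the breed differences was not tested.

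Ranges of the summed lists overlapped between breeds in each case. Leukocyte miRNAs summed to 1000 to 4974 CPM in Hampshire and 1255 to 2011 in Large White, and endothelium miRNAs to 32209 to 76498 and 35731 to 60039. Smooth muscle and stroma miRNAs summed to 57215 to 150110 CPM in Hampshire and 65031 to 235098 in Large White, where replicate 1 was highest. Liver miRNAs summed to 370 to 14067 and 422 to 4031 CPM, where miR-122 made up most of the high sums and miR-194a most of both lowest sums. Nerve miRNAs summed to 592 to 857 (median 722) CPM in Hampshire and 619 to 1090 (median 998) CPM in Large White. Epithelium and skin miRNAs summed to 81.9 to 1680 CPM in Hampshire and 391 to 1255 in Large White. The lowest of these sums, 148 and 81.9 CPM, were in Hampshire replicates 4 and 5, where miR-429 was listed at 0, and the other Hampshire sums were 1055 to 1680 CPM. The list of miRNAs abundant in fat summed to 395442 to 560390 CPM in Hampshire and 265811 to 458770 CPM in Large White. That overlap came from Large White replicate 1 alone, whose label is in doubt. Large White replicates 2, 3 and 4, at 322131, 265811 and 381582 CPM, were below every Hampshire library. Replicate 1 held 199806 CPM of miR-143-3p, a member of both the fat list and the smooth muscle and stroma list. The fat list holds no miRNA specific to fat cells, so it checks the tissue label only in part.

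**Figure D3:**
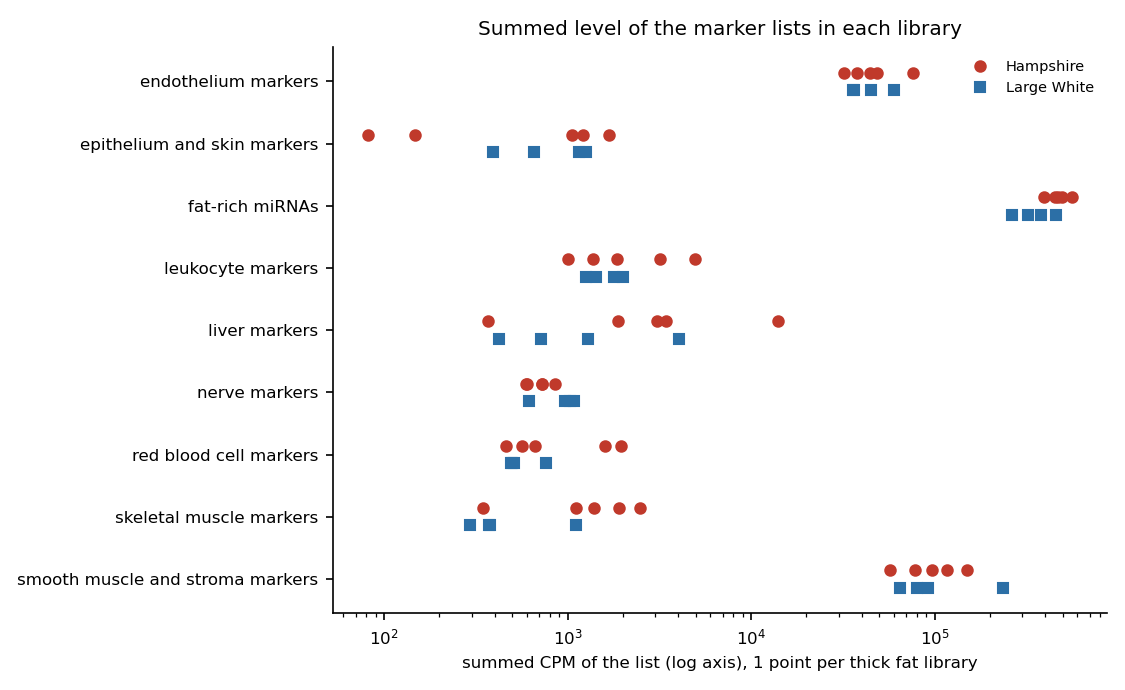
Summed level in CPM (log axis) of 9 lists of marker miRNAs, 1 point per thick fat library, Hampshire as circles and Large White as squares. The ranges of both breeds overlap in each list, for fat-rich miRNAs through Large White replicate 1 alone. Fat-rich miRNAs are far above the skeletal muscle, red blood cell and nerve lists. The smooth muscle and stroma list comes nearest to them, with up to 235098 CPM in Large White replicate 1.

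Several abundant miRNAs were listed at 0 in single libraries. A miRNA was counted here when it had a 0 although at least 100 reads were expected from its median level in the libraries with reads, and 18 names met this, 2 to 5 per library. miR-21, one of the most abundant miRNAs of fat, was at 17039 to 53869 CPM in Hampshire and 16672 to 23663 in 3 Large White libraries, and at 0 in Large White replicate 3. miR-199ab-3p and miR-199b-5p were both at 0 in Hampshire replicate 3 and Large White replicate 3. miR-145-5p and miR-145-3p, smooth muscle miRNAs of one hairpin, were both at 0 in Hampshire replicates 4 and 5, where the other 7 libraries held 2492 to 10476 CPM of miR-145-5p. None of these passed, and their intervals are wide: that of miR-21 was -2.53 to 4.72 and that of miR-145-5p -5.85 to 2.33.

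The same libraries shared some of these gaps. miR-429, an epithelial miRNA, was at 0 in Hampshire replicates 4 and 5. Of the Hampshire thick libraries, those alone held reads named miR-200b, 150 and 70 of them. The Large White table did not hold the name miR-200b. miR-450c-5p was at 0 in 4 of 5 Hampshire libraries and at 237 to 361 CPM in Large White, while the near copy miR-450a, which matches it over their shared length, had reads in every library. Both miRNAs that passed the test had reads in every library, and with names that had any 0 left out, miR-32 and miR-27a passed again among 4 of 114. How reads were assigned to names in each library was not tested.

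**Figure D4:**
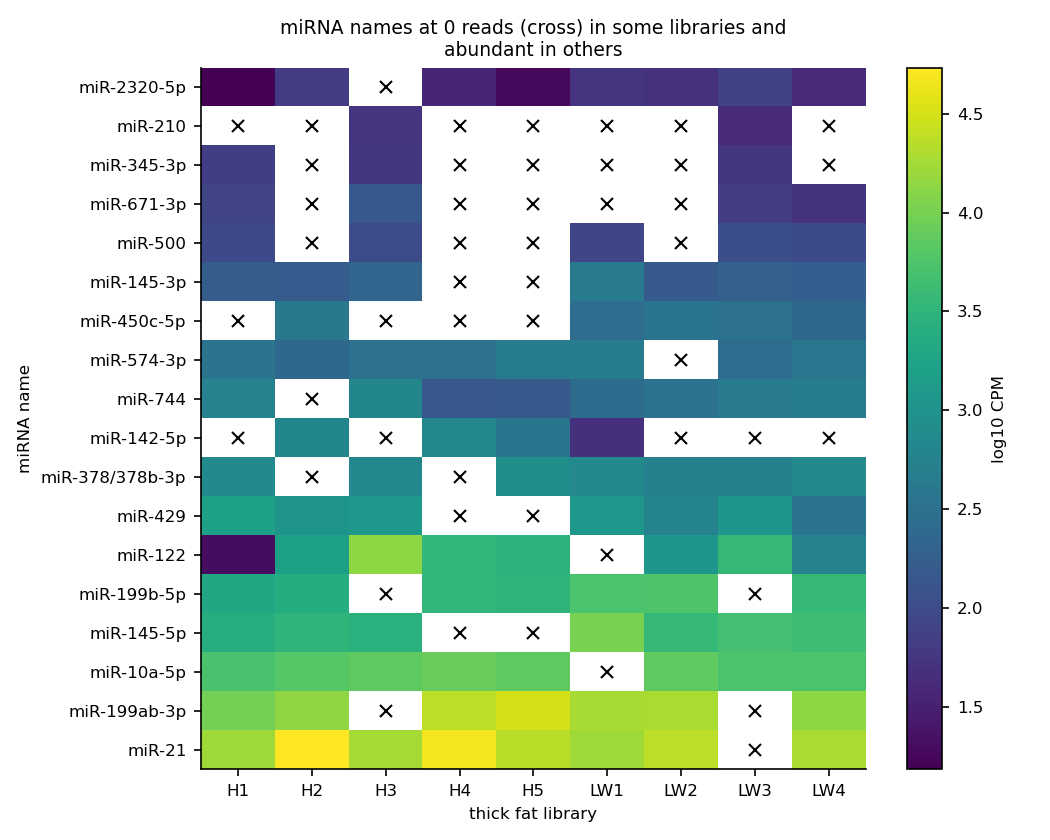
Level (colour, log10 CPM) of 18 miRNA names that were at 0 reads (cross) in at least 1 thick fat library where 100 or more reads were expected. Crosses fall in both breeds, with miR-145-5p and miR-429 at 0 in H4 and H5 and miR-199ab-3p at 0 in H3 and LW3.

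Names found in 1 table only could not be compared. Of the 22 in the Large White table alone, miR-214-3p had reads in 4 of 4 thick libraries, at 742 to 1234 CPM, and miR-214-5p in 4 of 4 at 44.7 to 75.3 CPM. Both come from the hairpin neighbouring miR-199a, a locus known from fibroblasts. Of the 21 in the Hampshire table alone, miR-192 had the most reads, but in 2 of 5 thick libraries, where it reached 9872 CPM. These names were chosen after their values were seen, and no fold is given for them.

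Thin fat of the same breeds gave a second look in other libraries, 2 Hampshire and 4 Large White. There 15 of 174 miRNAs passed (8.62%), 6 higher and 9 lower in Hampshire. The split was 3 and 7 with upper quartile scaling, 2 and 14 with library totals alone, and 12 and 9 with RLE size factors. Left-out libraries moved the count to 7, 5 and 3 without Large White thin replicate 2, 3 and 4, and to 35 and 23 without Hampshire thin replicate 1 and 2. A lone Hampshire library is then assumed to vary like the Large White ones. The thin fat counts came from the same deposited tables as the thick, so they share whatever separates the tables. miR-32 was at 178 and 236 CPM in Hampshire thin fat and at 176, 88.0, 77.4 and 91.4 CPM in Large White replicates 1 to 4. The lowest Hampshire library was just above the highest Large White one, and the log2 difference was 0.94 ± 0.38 (SE, 95% interval 0.01 to 1.86, adjusted p 0.171). That highest library is Large White thin replicate 1, whose label is in doubt with that of thick replicate 1. With the labels exchanged, miR-32 was at 1.32 ± 0.24 (SE, 0.73 to 1.91, adjusted p 0.0407). miR-27a was at 6787 and 6201 CPM in Hampshire and at 4294, 3970, 2761 and 3085 CPM in Large White, with 0.88 ± 0.21 (SE, 0.38 to 1.39, adjusted p 0.0520). The exchange put miR-27a at 0.95 ± 0.19 (SE, adjusted p 0.0407), so both passed in thin fat with exchanged labels.

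Of the 31 miRNAs at an unadjusted p under 0.05 in thick fat, 29 had the same sign in thin fat, 17 of 19 higher and 12 of 12 lower. Over all 150 miRNAs tested in both, 100 had the same sign. The exceptions among the 31 were miR-128 (-0.24 ± 0.27, SE) and miR-148b-3p (-0.12 ± 0.19, SE). In thin fat 6 of the 31 passed: miR-103 at -1.26 ± 0.16 (SE), let-7e at -1.57 ± 0.34 (SE), miR-140-3p at -0.80 ± 0.12 (SE), miR-381-3p at 1.47 ± 0.21 (SE), miR-151-3p at 0.83 ± 0.17 (SE) and miR-9 at 1.76 ± 0.38 (SE). Neither miR-32 nor miR-27a was among them. With exchanged labels miR-140-3p (adjusted p 0.0607) and miR-151-3p (0.0738) no longer passed in thin fat. The log2 difference was then 0.0081 for miR-148b-3p and -0.074 for miR-128.

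**Figure D5:**
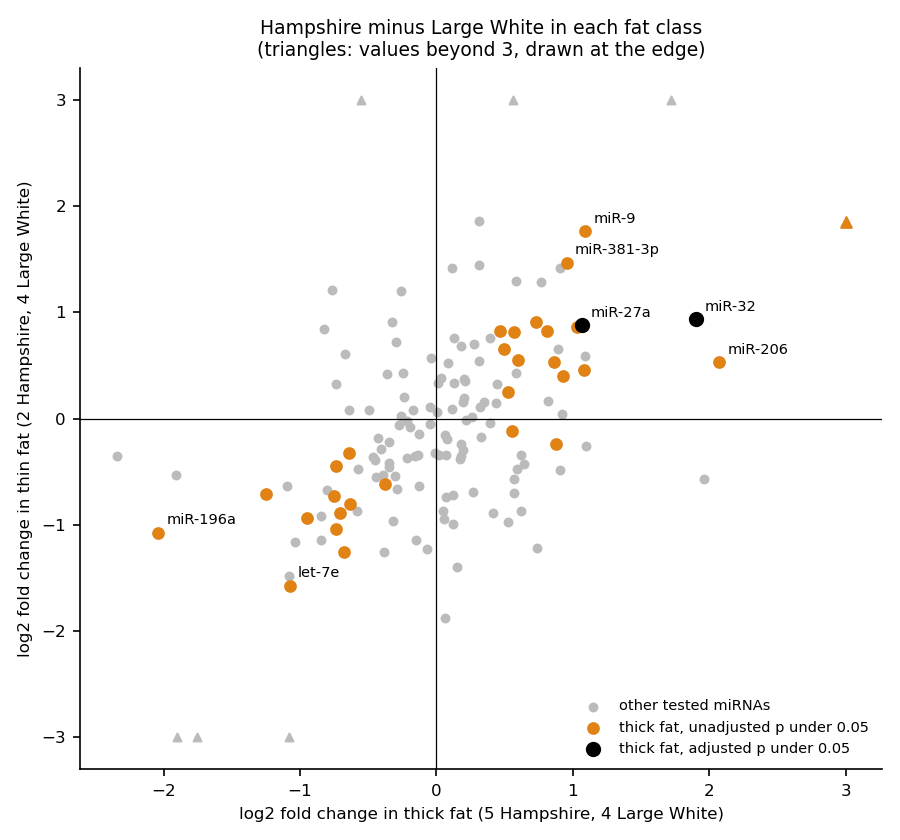
Log2 fold change, Hampshire minus Large White, in thick fat (horizontal axis) and thin fat (vertical axis) for the 150 miRNAs tested in both, with 7 beyond 3 drawn at the edge as triangles. Of the 31 coloured or black points, 29 lie where both values have the same sign.

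Whether the breed difference itself depended on the fat class was tested over all 15 Hampshire and Large White libraries. By edgeR 0 of 184 miRNAs passed (0%), 11 were at an unadjusted p under 0.05, DESeq2 called 4 and limma-voom 0. The edgeR count was 2 without Hampshire thin replicate 1, and 1 without Hampshire thin replicate 2 or Hampshire thick replicate 3. For miR-32 the thick minus thin difference was 0.98 ± 0.45 (SE, 95% interval 0.02 to 1.95, adjusted p 0.600). With exchanged labels it was 0.15 ± 0.45 (SE, -0.82 to 1.11, adjusted p 0.945). For miR-27a it was 0.19 ± 0.27 (SE, -0.38 to 0.76, adjusted p 0.826), and -0.015 ± 0.27 (SE) with exchanged labels. With 2 Hampshire thin libraries these intervals are wide, and a p that misses the threshold does not show that the differences were alike.

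Properties of the libraries were compared in the same way. Reads averaged 21.81 nt ± 0.0452 (SD, n = 5) for Hampshire and 21.85 nt ± 0.0422 (SD, n = 4) in Large White, with an exact permutation p of 0.230. Reads without a miRNA name made up 0.103% ± 0.0533 (SD, n = 5) in Hampshire and 0.0416% ± 0.0199 (SD, n = 4) in Large White, with an exact permutation p of 0.0238 (0.0357 adjusted over 3 measures, all two-sided). That difference had an exact p above 0.05 without any one of 8 of the 9 libraries. The median GC content of the leading sequence was 40.9% for the 19 higher and 40.02% for the 12 lower miRNAs, against 45.5% for all 153. Across the 153 miRNAs, which are not independent replicates, the log2 difference had a Pearson r of -0.08 with GC content and of -0.25 with length.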

How the data were processed

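Small RNA of pig subcutaneous fat was sequenced from gel-purified NEBNext libraries, per the labels' protocols. The authors deposited raw read counts per sequence, 1 table per breed, with no normalization. Named in the submitters' processing notes are the tools DESeq2, FastQC and bcl2fastq and the pig assembly Sscrofa10.2. The aligner and the miRNA annotation are not given in the sources used here, and no coordinates are given. From the authors' deposited DESeq2 comparison of Large White fat classes, only the log2 fold changes were used, to check labels.

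Counts were summed per miRNA name, and the unnamed sequences, 0.0138% to 0.192% of reads per thick library, stayed out. Names in both tables were tested with edgeR 4.0.16 (quasi-likelihood, robust, TMM, filterByExpr with a count minimum of 10, limma 3.58.1, R 4.3.3), Benjamini-Hochberg over all names tested, threshold 0.05. Only the thick libraries of both breeds entered the fit. The SE is the log2 difference divided by the root of F, and intervals are 95%. Reads carry no molecular identifier, so they are not independent molecules. Alternatives were other scalings, filters and joins, DESeq2 1.42.0, limma-voom, removal of a trend over GC content and length, exchanged labels, fits over more libraries and each library left out. Leaving out the 2 shallowest libraries was added after seeing the data. The test was also run on simulated counts, and the outcome is not given here, so no error rate is claimed from it. The rule for named miRNAs took those past the threshold (the 12 of smallest p per direction), the 5 of highest mean CPM and, of each list, every member past the threshold and the 2 of highest mean CPM. The members and the lists were chosen with earlier results of these data known.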

Additional observations from a re-analysis of the deposited data

Results flagged for a closer look

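In each group, a library was singled out when its gap to the nearest other library was large against the range of the whole group (Dixon's test at 95%). Of 132 groups of values tested, 12 met this, or 9.09%. The rate of about 1 in 20 by chance holds for normally distributed values, while CPM was used here without a log. All 12 were the highest value of their group, so the share is not read as an excess. Of these values, 4 were in Large White replicate 1, the library whose label is in doubt. There miR-143-3p was at 199806 CPM (58335 to 63634 in the others), miR-125b at 14289 CPM (9543 to 10057), miR-129a-5p at 237 CPM (29.4 to 52.1) and miR-1271-5p at 223 CPM (206 to 207). In Large White replicate 2, let-7f-5p was at 67602 CPM (46540 to 47509) and miR-144 at 6.02 CPM, with 0 in the others.

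Hampshire replicate 5 held 3 such values, with miR-32 at 449 CPM (248 to 297 in the others), miR-126-5p at 668 CPM (258 to 343) and miR-195 at 440 CPM (134 to 214). Without that library the log2 difference of miR-32 kept its sign and passed. In Hampshire replicate 2, miR-148b-3p was at 3288 CPM (1554 to 1897) and miR-450c-5p at 418 CPM, with 0 in the others. In Hampshire replicate 3, miR-122, the liver miRNA, was at 13641 CPM (19.8 to 3385).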

How the results depend on the processing

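In thick fat, across 66 named miRNAs and 1704 values under alternatives, 1523 kept their direction and side of the threshold, 85 newly passed, 11 no longer passed and 85, over 13 miRNAs, changed sign, with 0 of these among the 31 at an unadjusted p under 0.05. For each, the cause was not tested. The 31 were picked by p in the same thick libraries, so their steady sign is partly fixed by that choice. The thick fat count of 2 became 4 with library totals, with names in either table, with names that had a 0 left out, with the trend over GC content and length removed and with exchanged labels. It was 11 with the most abundant sequence only, 15 by limma-voom, 21 by DESeq2, 9 in the fits over 13 and over 22 libraries and 16 over 15 libraries, and 0 to 4 with a library left out. The thin fat count of 15 was 23 with a 10 CPM filter, 44 by DESeq2, 4 by limma-voom, 25 with names in either table and 3 to 35 with a library left out. The count of 0 for the thick minus thin difference was 4 by DESeq2 and 0 to 2 with a library left out. Sign changes were as follows, in log2. miR-143-3p was at 0.000138 by limma-voom, 0.28 with exchanged labels, 0.37 without the 2 shallowest libraries and -0.49 to 0.36 with a library left out. miR-10b was at -0.16 with upper quartile scaling, -0.13 with totals, -0.052 with RLE and DESeq2, -0.048 with shared sequences only, -0.030 without a filter, -0.029 without the 2 shallowest, -0.014 by limma-voom, -0.012 over 22 libraries, -0.0057 with either table, -0.000865 without names with a 0, -0.0083 with exchanged labels and -0.17 to 0.060 with a library left out. miR-27b-3p was at 0.057 with the 10 CPM filter, 0.064 without the 2 shallowest, 0.021 by limma-voom, 0.022 over 13 libraries, 0.027 with exchanged labels, 0.0066 over 15 libraries and -0.18 to 0.12 with a library left out. miR-125b was at 0.0056 without the 2 shallowest. miR-127 was at 0.014 with the 10 CPM filter, 0.11 with the GC trend removed, 0.016 over 15 libraries and -0.27 to 0.033 with a library left out. miR-126-3p was at -0.057 with totals, -0.035 by limma-voom and -0.19 to 0.25 with a library left out. miR-429 was at 0.043 with the 10 CPM filter, 0.036 without the 2 shallowest, 0.020 with the GC trend removed, 0.067 over 15 libraries and -0.62 to 0.28 with a library left out. miR-182 was at -0.013 with upper quartile scaling, -0.16 with totals, -0.34 by limma-voom, -0.10 with exchanged labels and -0.36 to 0.29 with a library left out. let-7i-5p was at -0.12 with upper quartile scaling, -0.16 with totals, -0.034 with RLE and DESeq2, -0.055 by limma-voom, -0.020 with shared sequences only and -0.21 to 0.14 with a library left out. miR-92a was at -0.075 with upper quartile scaling and -0.11 to 0.23 with a library left out. miR-29b was at -0.14 with totals, -0.50 by limma-voom, -0.52 with exchanged labels and -0.32 to 0.39 with a library left out. miR-129a-5p was at 0.82 by limma-voom and without the 2 shallowest, 0.69 with exchanged labels and -0.69 to 0.77 with a library left out. miR-199ab-3p was at -0.14 to 0.61 with a library left out. The thick minus thin difference of miR-27a was at -0.015 with exchanged labels. The median SE of 0.37 limits what these 9 libraries can show, and 44 of 153 intervals lay within 1 log2 of 0. No paired analysis was possible because replicate numbers were given in the order of the deposit and the groups share no animal label.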
